A study of Rattus norvegicus with 90 samples.

Results

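The response of the rat liver to a low dose of thioacetamide was measured 8 h after exposure by RNA sequencing of 10 liver samples, 5 from rats given 25 mg/kg of thioacetamide and 5 from rats given vehicle. These are 10 of the 90 samples of a study of liver, kidney, and heart, and they were chosen by the labels alone, as liver, 8 h, and low dose or vehicle. The rats were male Sprague-Dawley animals, bought at 10 weeks of age. Each carried a jugular catheter, which the vehicle rats had too, and received a single intraperitoneal injection in the morning. The vehicle was saline at 3 ml/kg. Food was withheld from these groups until the organs were taken 8 h later. The comparison of low dose with vehicle at 8 h is thus between fasted, catheterized rats with and without the agent. Rats sampled at 24 h, which are used further on, were injected at 5 pm and had food until the last 8 h. The libraries were made from poly-A RNA, and each holds the RNA of a whole piece of tissue, in which fewer cells of a type and less RNA per cell cannot be told apart.

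Thioacetamide is not itself the toxic species. Cytochrome P450 enzymes, CYP2E1 above all, and flavin-containing monooxygenases oxidize it to an S-oxide and then to a reactive S,S-dioxide, which binds to proteins and lipids of the cell that made it. Hepatocytes around the central vein hold most of this oxidizing activity and are where the injury is classically seen. Hepatocytes also make the large secreted and metabolic proteins that set the liver apart from other organs, so that a small number of transcripts takes up most of a liver library.

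Each library lists 40071 Ensembl transcripts. The files do not pair these transcripts with genes, so the results are described by the transcripts' level in untreated tissue, by the organ that carries them, and by their size of change, and the markers of liver cell types could not be checked. Of the 40071 transcripts, 16341 had enough counts to be tested and 23730 did not, of which 11212 had no count in any of the 10 libraries. Total estimated counts were 23201770 to 30145236 with vehicle and 17747394 to 31807591 with the low dose, with no difference detected between the groups (exact permutation test, two-sided, p = 0.952). Genomic intervals that are listed beside the transcripts took 4.08% to 23.6% of the counts with vehicle and 5.23% to 26.4% with the low dose. The share was above 10% in vehicle replicate 3 and in low-dose replicates 3 and 4. The low-dose library MS-9 (replicate 1) held almost the same counts as MS-1, a library labelled vehicle at 24 h. Of 15797 transcripts, 99.96% differed by no more than 1 count between these libraries. MS-9 is kept here under its label, and the counts of calls are also given without it.

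At 8 h, 1614 transcripts (9.88% of those tested) differed between low dose and vehicle, 944 higher (5.78%) and 670 lower (4.1%) with thioacetamide. A transcript was called at a Benjamini-Hochberg adjusted p of at most 0.01 in edgeR's quasi-likelihood test and a change by 1.82-fold or more, equal to 0.60 as a natural logarithm and 0.87 as a log2 value. The split depends on how libraries are scaled to each other: with library totals in place of edgeR's TMM scaling 2236 rose and 246 fell, and with limma on log2(TPM + 1) 1259 rose and 157 fell. Without MS-9, 706 rose (4.25%) and 540 fell (3.25%), and 1219 of these 1246 were also called with all 10 samples. The rises were larger than the falls at their extremes. This is a description only, since the 11 tested transcripts with at most 3 counts in every vehicle library all rose. They could pass the filter on low counts only through the low-dose samples, and almost no vehicle counts stand below their fold changes. No fall had at most 3 counts in every low-dose library. The median rise was 1.31 on the log2 scale, a fold change of 2.48, and 199 of the 944 rises were at least 4-fold, 76 at least 8-fold, and 31 at least 16-fold. The median fall was −1.13 on the log2 scale, a fold change of 2.19, and 66 of the 670 falls were at least 4-fold, 8 at least 8-fold, and 4 at least 16-fold. The smallest absolute log2 fold change inside the limit was 0.8662, and the largest just outside it, among transcripts that passed the adjusted p, was 0.8648. With no limit on the fold change, 1802 transcripts rose and 1622 fell.

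The 5 low-dose samples lay outside the range of the 5 vehicle samples for most called transcripts. The same values made the calls, which favours such a separation, so the counts that follow are a description. All low-dose values were above all vehicle values for 900 of the 944 rises, where 14.2% of all tested transcripts were higher without overlap. All were below for 632 of the 670 falls, where 12.4% of all tested transcripts were lower without overlap. The biological coefficient of variation of the tested transcripts was 0.347 within the vehicle group, 0.284 within the low-dose group, and 0.282 in the low-dose group without MS-9.

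The share of tested transcripts that rose was larger at low levels in the untreated liver, and the share that fell was larger at higher levels, up to 1000 TPM. In number, the falls were nearly as many at 1 to 10 TPM as at 10 to 100 TPM. Few counts make a change harder to call, a fall more so than a rise, so shares at different levels are not on equal terms. The untreated level was taken as the mean TPM, an abundance scaled by transcript length and library, in the 4 vehicle livers at 24 h other than MS-1, which the comparison at 8 h did not use. Of these, MS-19 and MS-21 had 20.6% and 25.0% of their counts on intervals, and MS-4 and MS-20 had 7.64% and 8.27%. The same 4 livers set the level classes, the liver-restricted class, and the most abundant transcripts in every repeat below. Among 3859 transcripts tested at 0.1 to 1 TPM, 283 rose and 37 fell. Some of these had fewer than 10 counts on average in untreated liver and passed the filter through the samples at 8 h, so the class was also taken over transcripts with a mean of 10 or more counts in the 4 untreated livers, of which 3265 were tested and 234 were not. Of the 3265, 224 rose (6.86%) and 36 fell (1.10%), with a median log2 fold change of 0.17, and without MS-9 153 of 3340 rose and 24 fell. This selection was chosen after seeing the data. At 1 to 10 TPM, 510 of 7564 rose (6.74%) and 269 fell (3.56%). The order was turned at 10 to 100 TPM, where 94 of 3710 rose (2.53%) and 272 fell (7.33%). At 100 to 1000 TPM, 5 of 749 rose (0.67%) and 83 fell (11.1%), and above 1000 TPM none of 124 rose and 7 fell (5.65%). The median log2 fold change of all transcripts tested went from 0.07 at 1 to 10 TPM to −0.47 at 100 to 1000 TPM, beside 0.00 over all 16341.

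**Figure D1:**
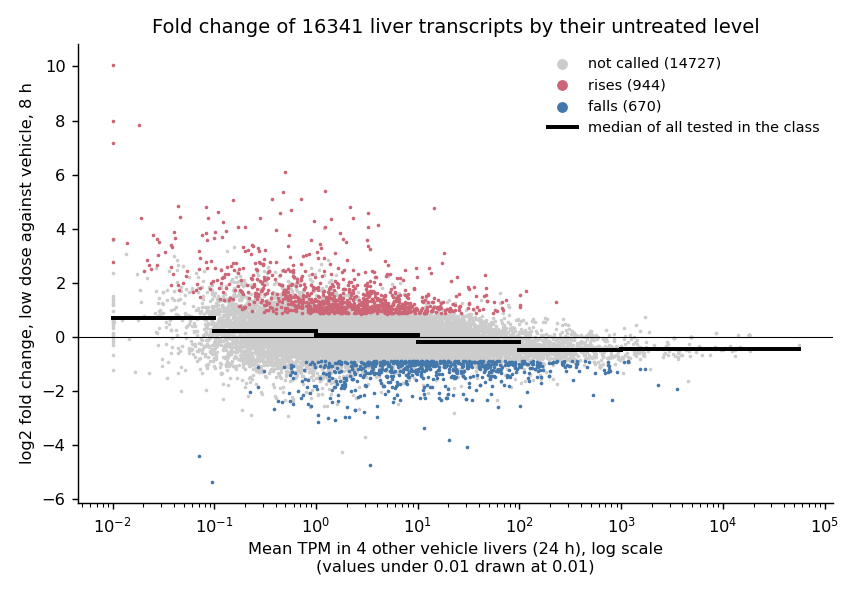
Log2 fold change at 8 h (low dose against vehicle, 5 samples each) of each of 16341 transcripts, on the y axis, against its mean TPM in 4 vehicle livers at 24 h, on a log x axis. Red points are the 944 rises, blue points the 670 falls, and black bars the median of all tested transcripts in a level class, which goes from 0.07 at 1 to 10 TPM to −0.47 at 100 to 1000 TPM. At 0.1 TPM or less, transcripts could be tested only where some samples were high.

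The lowest class, at 0.1 TPM or less, held 52 rises and 2 falls among 335 tested, but a transcript absent from untreated liver could enter the test only through samples in which it was high, so no share is read from it. The same holds for the 11 tested transcripts with at most 3 counts in every vehicle library, which could pass the filter on low counts only through the low-dose samples. ENSRNOT00000082209, described further on, is one of them.

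The pattern by level held without MS-9, with 73 rises and 239 falls at 10 to 100 TPM and 5 rises and 69 falls at 100 to 1000 TPM. It also held in the 7 libraries with under 10% of counts on intervals, with 5 rises and 72 falls at 100 to 1000 TPM. How the libraries are scaled to each other moved it. TMM scaling centres the typical transcript at no change, and with library totals alone the median of all transcripts was 0.34 higher on the log2 scale. On that scale the class of 10 to 100 TPM turned round, with 307 rises and 95 falls and a median of 0.14. At 100 to 1000 TPM it kept its direction, with 13 rises, 21 falls, and a median of −0.14, which is 0.47 below that of all transcripts.

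Of the 4 classes of organ level, transcripts restricted to the liver had the largest share of falls. This class holds 571 tested transcripts with at least 1 TPM in untreated liver and at least 10 times their level in untreated kidney and heart, both taken from vehicle samples at 24 h. Of the 571, 96 fell (16.8%) and 6 rose (1.05%), with a median log2 fold change of −0.62, and 9.63% had a fold change above 0. Without MS-9, 82 of 572 fell and 4 rose. In the 7 libraries with few interval counts, 63 of 575 fell and 5 rose. With library totals alone, 42 of 571 fell and 9 rose, so that falls outnumbered rises on either scale. Transcripts at even levels in the 3 organs, at least 1 TPM in each and within 3-fold, held 316 rises (5.16%) and 178 falls (2.91%) among 6121 and had a median of 0.02, and with library totals alone 916 rises, 40 falls, and a median of 0.36. Among 1792 transcripts at least 10 times higher in kidney or heart than in liver, 127 rose (7.09%) and 36 fell (2.01%), and 248 and 20 with library totals alone. Members of this class that are nearly absent from untreated liver could enter the test only through samples in which they were high. Its excess of rises is therefore not read as a result. Without MS-9 the even class held 256 rises and 142 falls, and the class low in liver 94 and 27.

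High level and restriction to the liver overlap, so the classes were crossed. Among transcripts at 10 to 100 TPM, 41 of 192 that were liver-restricted fell (21.4%), beside 231 of 3518 that were not (6.57%). Above 100 TPM, 34 of 242 liver-restricted transcripts fell (14.1%), beside 56 of 631 others (8.88%). At 1 to 10 TPM, 21 of 137 liver-restricted transcripts fell (15.3%), beside 248 of 7427 others (3.34%). Within the liver-restricted class the median log2 fold change was nearly the same at the 3 levels, −0.61 at 1 to 10 TPM, −0.61 at 10 to 100 TPM, and −0.63 above 100 TPM. Outside it, the median went from 0.08 to −0.18 and −0.39. The shares were smaller with library totals alone, at 9.38% of liver-restricted transcripts and 2.19% of the others at 10 to 100 TPM, 4.96% and 1.58% above 100 TPM, and 8.76% and 1.29% at 1 to 10 TPM. In the 7 libraries with few interval counts, the liver-restricted share that fell at 1 to 10 TPM was 4.96%, beside 2.34% of the others.

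**Figure D2:**
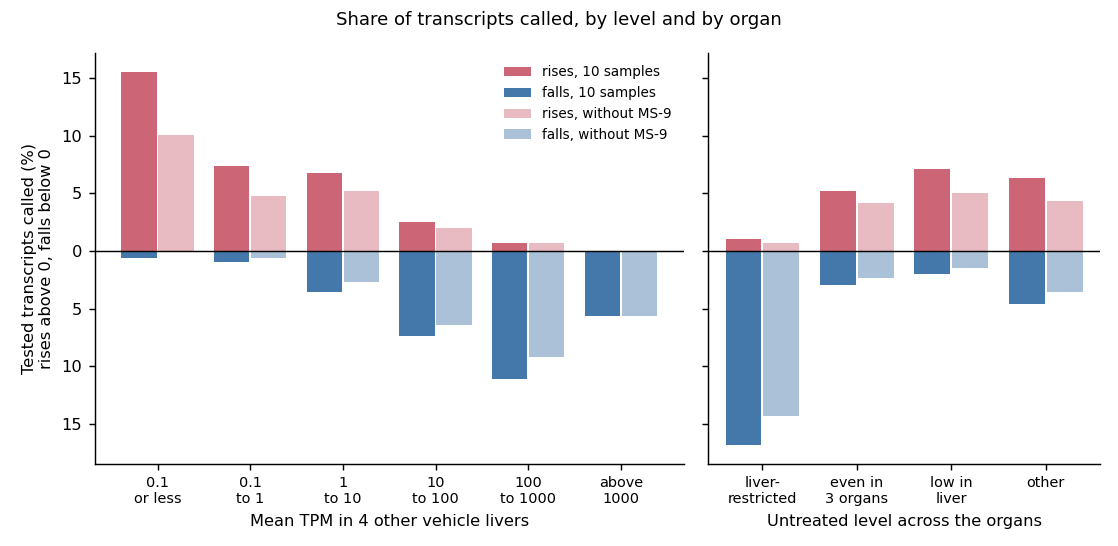
Percentage of tested transcripts called in each class, with rises drawn above 0 in red and falls below 0 in blue, by untreated liver level (left, mean TPM) and by untreated level across liver, kidney, and heart (right). Full colours are all 10 samples and pale colours the 9 samples without MS-9. Falls reach 11.1% at 100 to 1000 TPM and 16.8% in liver-restricted transcripts. At 0.1 TPM or less and in the class low in liver, transcripts absent from untreated liver could be tested only where some samples were high.

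By transcript length the shares varied less. Rises made up 3.28% of transcripts of 300 to 1000 bases, 5.6% of those of 1000 to 2000 bases, 6.63% of those of 2000 to 4000 bases, and 6.22% of longer ones. Among transcripts at 1 to 10 TPM alone, the rises were 4.49%, 7.06%, 7.41%, and 6.29% in the same classes of length.

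The libraries differed in composition in the same direction. With the low dose, 14548 ± 274 transcripts (SD, n = 5) reached 1 TPM, and with vehicle 13295 ± 354 (SD, n = 5). The 5 low-dose samples were between 14191 and 14784 and the 5 vehicle samples between 12913 and 13656, with no overlap (exact permutation test, two-sided, p = 0.00794, the smallest that 5 against 5 samples can give, adjusted p = 0.0238 over 9 measures). The 3000 transcripts most abundant in untreated liver took 93.3% ± 0.76 (SD, n = 5) of the transcript TPM with vehicle and 90.7% ± 1.41 (SD, n = 5) with the low dose. The groups did not overlap here either, but were close, with a lowest vehicle value of 92.472% and a highest low-dose value of 92.453% (exact permutation test, p = 0.00794, adjusted p = 0.0238). For the 1000 most abundant the groups overlapped, at 83.04% to 87.9% with vehicle and 78.2% to 84.9% with the low dose (exact permutation test, p = 0.0873, adjusted p = 0.196).

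The TMM scaling factors also separated the groups, at 0.834 to 0.948 with vehicle and 1.08 to 1.18 with the low dose (exact permutation test, p = 0.00794, adjusted p = 0.0238). Without MS-9, these 3 measures still separated the groups (exact permutation tests, p = 0.0159 and adjusted p = 0.0476 for each). The share of TPM in liver-restricted transcripts was 42.3% ± 6.93 (SD, n = 5) with vehicle and 36.7% ± 6.0 (SD, n = 5) with the low dose, a difference within the spread of the samples (exact permutation test, p = 0.175, adjusted p = 0.314). This share moved with the counts on intervals. The 3 libraries with many interval counts held 30.2% with vehicle and 29.8% and 30.5% with the low dose, whereas the other 4 vehicle libraries held 43.9% to 47.9% and the other 3 low-dose libraries 39.5% to 42.02%. In those 7 libraries the groups did not overlap (exact permutation test, p = 0.0571, the smallest that 3 against 4 samples can give).

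**Figure D3:**
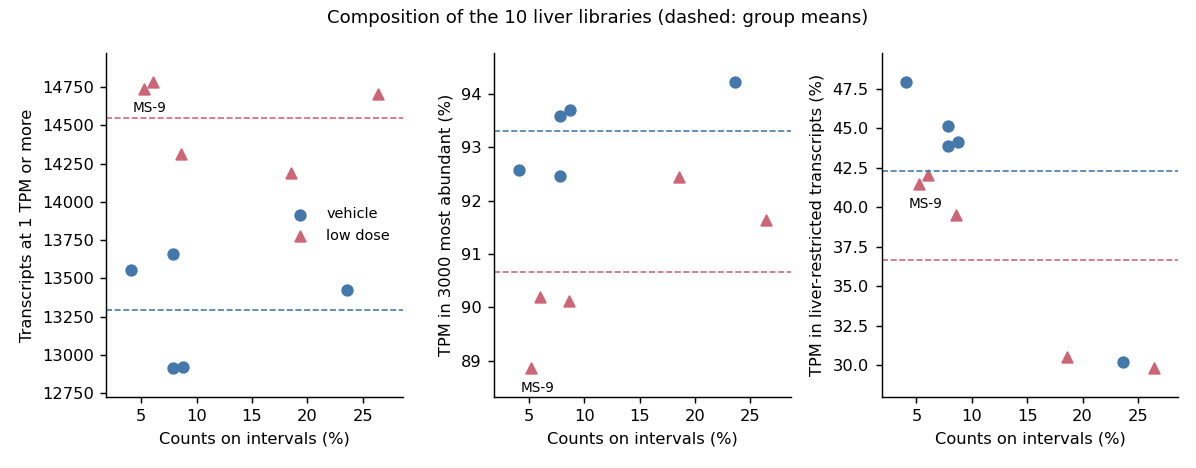
Each point is 1 of the 10 liver libraries (blue circles vehicle, red triangles low dose), with the percentage of its counts on genomic intervals on the x axis and, on the y axes, its number of transcripts at 1 TPM or more, the percentage of its TPM in the 3000 most abundant transcripts, and the percentage in liver-restricted transcripts. Dashed lines are group means, and the groups separate in the first 2 panels at low and at high interval shares, while in the third the 3 libraries above 10% on intervals lie near 30%.

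In terms of the summed level, the transcripts that rose were a small part of the library. The 944 rises together took 0.39% to 0.60% of the TPM in the vehicle samples and 1.28% to 2.56% in the low-dose samples, with the highest value in MS-9 and the next at 1.90%. The 670 falls took 4.23% to 5.76% with vehicle and 2.31% to 3.46% with the low dose. These sums describe the transcripts that were chosen by the same values and carry no test.

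With no gene symbols, the naming rule gave the 2 largest rises and the 2 largest falls among the calls whose mean was 2 or more CPM, the count scaled to a common library size, and that had no overlap between the groups, with and without MS-9. In all, 755 rises and 585 falls met it. Kallisto divides reads between transcripts that share sequence, so the level of a single transcript can include reads of a close relative.

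The transcript with the largest rise, ENSRNOT00000082209, was silent in the vehicle livers. Its rounded counts were 0 in all 5 vehicle samples, and it had 6.21, 3.40, 9.57, 2.35, and 6.83 CPM in the low-dose samples, of which the first is MS-9. Every low-dose sample was above every vehicle sample, as the naming rule requires. The mean of 5.67 ± 2.87 CPM (SD, n = 5) was at least 40.3-fold higher than a floor of 3 counts per vehicle library. The transcript could pass the filter on low counts only through the low-dose samples, so no p-value is read for it. At the high dose, the 5 livers at 8 h held it at 0.145 to 3.85 TPM, beside 1.13 to 5.08 TPM at the low dose. At 24 h after the low dose it varied from 0 to 8.01 TPM between samples and was listed at 0 in the 4 vehicle livers other than MS-1. It was listed at 0 in all 10 kidneys with vehicle or low dose at 8 h, and reached 5.87 TPM in a low-dose heart and 2.33 TPM in a vehicle heart at 8 h.

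ENSRNOT00000047126 rose from a low to a high level. The vehicle samples held 1.96, 0.74, 2.77, 1.12, and 2.08 CPM, and the low-dose samples 200.4, 74.1, 166.9, 40.7, and 119.8 CPM, with MS-9 the highest. The lowest low-dose value was well above the highest vehicle value. The log2 fold change was 6.10 with a standard error of 0.52 (edgeR adjusted p = 4.11e-05), and 5.84 without MS-9. After the high dose at 8 h it rose by a log2 fold change of 5.27 against the same 5 vehicle samples (edgeR adjusted p = 2.63e-06). The direct difference between the doses was −0.85 on the log2 scale and did not pass (edgeR adjusted p = 0.165). At 24 h after the low dose it was still at 33.1 to 56.3 TPM, beside 0.14 to 0.90 TPM in the vehicle livers other than MS-1, a log2 fold change of 5.70 (edgeR adjusted p = 6.16e-05). With MS-1, which held 74.7 TPM, the log2 fold change was 1.49 and did not pass (edgeR adjusted p = 0.518). In the kidney at 8 h its level was 1.66 to 5.03 TPM with the low dose and 0.26 to 2.08 TPM with vehicle, a log2 fold change of 1.83 that did not pass (edgeR adjusted p = 0.137).

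ENSRNOT00000079795 showed the largest fall by the rule. The vehicle samples held 7.63, 2.12, 3.39, 10.4, and 2.38 CPM, and the low-dose samples 0, 0.69, 0.14, 0, and 0 CPM. The log2 fold change was −4.74 with a standard error of 0.95 (edgeR adjusted p = 0.00295), and −4.49 without MS-9. Its size turns on low-dose replicate 2, the sample with 0.69 CPM, without which it was −6.80. In the 7 libraries with few interval counts the fall was −4.36 and no longer passed. The transcript was liver-restricted, with 3.36 TPM in untreated liver, 0.152 in kidney, and 0.107 in heart. It was also low at 24 h, with a log2 fold change of −4.36 without MS-1 (edgeR adjusted p = 0.00758) and −4.01 with it (edgeR adjusted p = 0.0715). After the high dose at 8 h it did not pass, at −2.25 (edgeR adjusted p = 0.0932).

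ENSRNOT00000002814 rests on less. The vehicle samples held 3.21, 1.98, 14.8, 1.47, and 0.98 CPM, and the low-dose samples 0.05 to 0.44 CPM, so the groups did not overlap, but the 14.8 CPM of vehicle replicate 3 was far from the other 4. This is the vehicle library with 23.6% of its counts on intervals. The log2 fold change was −4.39 with a standard error of 0.88 (edgeR adjusted p = 0.00304), and −4.19 without MS-9, where it missed the threshold (edgeR adjusted p = 0.0101). Without vehicle replicate 3 it was −3.19 and still passed. The transcript is low in untreated liver, at 0.0714 TPM, and is mainly a transcript of the kidney, at 4.39 TPM. After the high dose at 8 h, against the same vehicle samples, its log2 fold change was −4.83 (edgeR adjusted p = 0.00174).

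**Figure D4:**
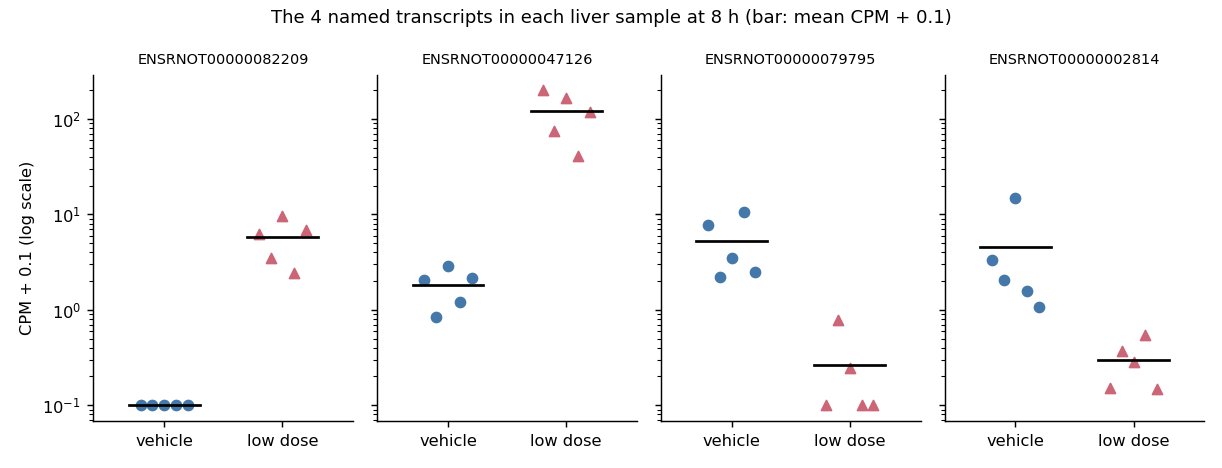
CPM + 0.1, on a log y axis, of the 4 named transcripts in each of the 5 vehicle (blue circles) and 5 low-dose (red triangles) livers at 8 h, with bars at the mean. The groups do not overlap for any of the 4, which the naming rule required. A single vehicle sample at 14.8 CPM stands apart for ENSRNOT00000002814.

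Each library was then set against calls made without it. For each of the 10 samples left out in turn, the transcripts called in the other 9 were taken, and the left-out sample was placed for each transcript on a scale from the vehicle mean (0) to the low-dose mean (1) of log2(CPM + 0.5). The 5 low-dose samples lay on the low-dose side of the midpoint for 91.4% to 98.1% of the transcripts, with median positions of 0.83 to 1.24. The 5 vehicle samples lay on the vehicle side for 79.5% to 94.6%, with median positions of 0 to 0.13. MS-9 was at the upper end on both counts, with 1222 of 1246 transcripts (98.1%) on the low-dose side. The lowest share was that of vehicle replicate 3, at 1400 of 1760.

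On the same scale, with the 1246 transcripts called without MS-9, the 20 liver samples that had no part in the choice were spread by dose and time. The 4 vehicle samples at 24 h other than MS-1 had median positions of −0.05 to 0.08, whereas MS-1 had 1.24, as MS-9 did. The 5 low-dose samples at 24 h were in between, at 0.50 to 0.82. The 5 high-dose samples were at 1.07 to 1.28 at 8 h and at 1.0 to 1.32 at 24 h. Among the rises alone, the high-dose samples at 8 h were at 1.09 to 1.44, and among the falls at 1.05 to 1.15.

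**Figure D5:**
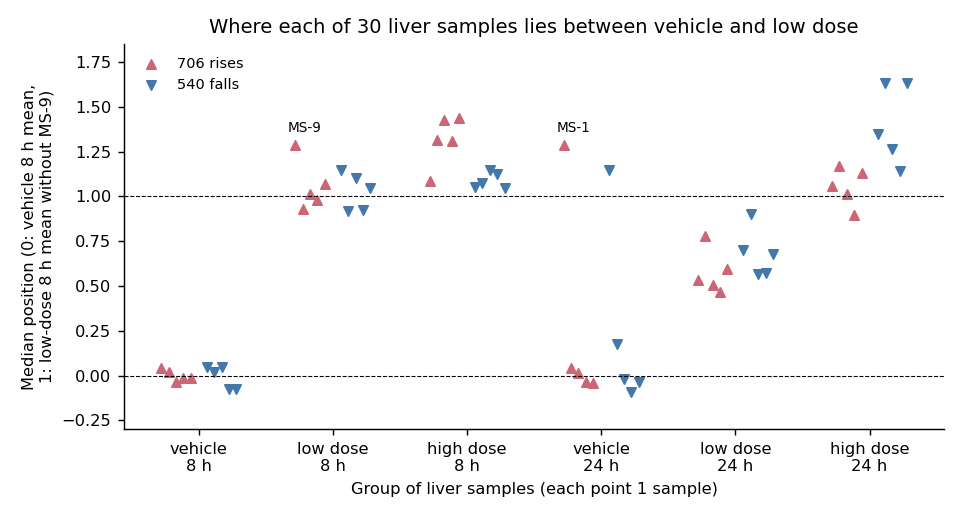
Median position of each of 30 liver samples (each point 1 sample) between the vehicle mean at 8 h (0) and the low-dose mean at 8 h without MS-9 (1), over 706 rises (red) and 540 falls (blue) called without MS-9, by dose and time on the x axis. Low-dose samples at 24 h lie between 0.47 and 0.90, high-dose samples at or above 0.90, and MS-1 apart from the other vehicle samples at 24 h. The vehicle and low-dose samples at 8 h other than MS-9 set the scale.

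The same transcripts were followed to 24 h in samples that share no library with those that chose them, that is, with calls made without MS-9 and a comparison at 24 h made without MS-1. In that comparison 820 transcripts rose (4.89% of 16754) and 695 fell (4.15%). Of the rises at 8 h, 692 were tested, 660 of them (95.4%) had a positive fold change at 24 h, and 211 (30.5%) were called as rises again. Of the falls at 8 h, 538 were tested, 514 (95.5%) had a negative fold change, and 194 (36.1%) were called as falls again. None was called in the opposite direction. The median log2 fold change at 24 h was 0.75 for the rises and −0.83 for the falls.

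With MS-1 kept under its label, 158 transcripts rose (0.96% of 16463) and 157 fell (0.954%) at 24 h. MS-1 then stands among the controls with the counts of a library that helped to choose the transcripts, and the medians were 0.19 for the 944 rises and −0.58 for the 670 falls, of which 8 and 26 were called.

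Whether the effect differed between 8 and 24 h was tested as the interaction of dose and time over 20 samples, at an adjusted p of at most 0.01 with no limit on size. The hour of injection and the feeding after it also differed between the times and cannot be told apart from time. The interaction is described next. The interaction was called for 122 of 17591 transcripts (0.694%) with all samples and for 112 of 17835 (0.628%) without MS-1 and MS-9. Among the members, 24 were called with all samples, 16 rises and 8 falls, each with a smaller effect at 24 h. Without both libraries 32 were called, of which 18 rises and 13 falls had a smaller effect at 24 h and 1 rise a larger effect. The median difference, 24 h minus 8 h, was then −0.51 for the rises and 0.42 for the falls on the log2 scale. The 8 h side of the interaction also chose the members, so these counts are a description. The number called was unstable to the samples. It was 17 without MS-9 and 184 without MS-1. It was between 10 and 71 without any single one of vehicle replicates 1, 2, 4, and 5 at 8 h, low-dose replicates 2, 3, and 4 at 8 h, or low-dose replicates 1, 3, 4, and 5 at 24 h, and reached 10 without low-dose replicate 1 or 5 at 24 h.

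At 8 h after the high dose of 100 mg/kg, more transcripts were called than after the low dose. Against the same 5 vehicle samples, 2046 transcripts rose (12.4% of 16468) and 1277 fell (7.75%). The 944 rises at the low dose had a median log2 fold change of 1.77 at the high dose, beside 1.31 at the low dose, and the 670 falls a median of −1.23, beside −1.13. The 695 rises and 539 falls called without MS-9 and tested at the high dose had medians of 1.84 and −1.24. The vehicle samples are shared, so likeness between the doses is not read from these values.

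The doses were compared directly, 5 samples against 5. At the high dose, 291 transcripts were higher and 112 lower, 403 in all (2.4% of 16818). Of the members, 142 of the 1599 tested differed. Among the 944 rises, 119 were higher still at the high dose and 3 were lower, and among the 655 falls tested, 17 were lower still and 3 were higher. The median difference was 0.39 on the log2 scale for the rises and −0.05 for the falls. The low-dose samples entered both the choice and this test. Without MS-9 the number of calls was 395. Leaving out 1 sample gave 97 to 512 calls, with fewer than 229 when any single sample was left out other than MS-9 or high-dose replicate 1.

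In the kidney the low dose changed 33 transcripts upward (0.175% of 18829) and 8 downward (0.0425%) at 8 h. Of the 33 rises, 22 were also rises in the liver, which is 66.7% of the kidney's rises and 2.43% of the 907 liver rises that were tested in the kidney. These 22 had a median log2 fold change of 2.56 in the liver and 1.46 in the kidney. The liver rises as a whole had a median of 0.30 in the kidney, and the 602 liver falls tested there a median of −0.23, of which 2 were called as falls. For the rises and falls called without MS-9 these medians were 0.34 and −0.23. The interaction of dose and organ was called for 692 of 20037 transcripts (3.45%), and for 492 without MS-9. The study took the 3 organs from the same rats, and this test treats them as independent samples. The labels name no rat, but the library numbers of 8 liver and 8 kidney samples run in step. Over these pairs it called 690 transcripts without and 337 with a block for the pair, and 283 and 3 with MS-9 left out. It was called for 512 members, 332 rises and 180 falls, each with the smaller effect in the kidney, as a choice made in the liver favours. Of the 22 shared rises, 9 differed between the organs. Leaving out any single kidney sample other than vehicle replicate 2 took the 692 to between 443 and 544. Without kidney vehicle replicate 2 the number was 966.

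In the heart no transcript of 17703 was called by edgeR at 8 h after the low dose, and 696 had an unadjusted p under 0.05. No other tool was run on that comparison. The 875 liver rises tested in the heart had a median log2 fold change of 0.00 and 50.97% were above 0, and the 540 liver falls a median of 0.00 with 48.1% below 0. For those called without MS-9 the medians were 0.01 and 0.00. The interaction with the liver was called for 2335 of 19511 transcripts (12%), and for 1859 without MS-9. Of the 2335, 716 were rises and 407 were falls of the liver, as a choice made in the liver favours. The 8 heart and liver pairs with numbers in step were 5 with vehicle and 3 with the low dose. Over these pairs the test called 1214 without and 374 with a block for the pair, and 357 and 19 with MS-9 left out.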

How the data were processed

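The authors pseudo-aligned read pairs with kallisto 0.42.2 to the Ensembl rat transcriptome (Rnor_6.0) and deposited, for each target of each library, an estimated count that is not normalized, a TPM scaled by length and library, and the target lengths. Targets are 40071 transcripts and 25095 genomic intervals, which were left out of the tests. Estimated counts were rounded and analysed in R 4.3.3 with edgeR 4.0.16 (default filter with a minimum count of 10, TMM scaling, quasi-likelihood test, Benjamini-Hochberg adjustment). CPM are edgeR's, on TMM-scaled totals. TPM were rescaled over the transcripts, except for limma. Alternatives were DESeq2 1.42.0 and limma 3.58.1, the latter on logged TPM as the authors gave them, with a pseudocount of 1 or 0.1. Exact permutation tests used scipy 1.17.1, and plots matplotlib 3.10.9. The edgeR steps were tested on simulated counts, and the DESeq2 and limma steps were not. In the simulation a small part of the transcripts changed in random directions, with no shift in composition between the groups. It therefore does not check the scaling of the libraries.

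Samples were grouped by their labels. The limits of 0.01 and 0.60 are those of the study's methods, where 0.60 applies to an effect size that is not equivalent to a fold change. The samples, classes, and gene lists were chosen with earlier results of these data known. The listed genes, cell type markers, sequences, and counts summed per gene need a table of transcripts and genes and were not analysed here. The naming rule was the 2 largest rises and 2 largest falls by log2 fold change among called transcripts with at least 2 CPM on average and no overlap between groups, with and without MS-9. The study took the 3 organs from the same rats, and the labels name no rat, so organs were compared as independent samples. Total estimated counts of 17747394 to 31807591 per library limit the precision of transcripts with few counts, and the floor of 3 counts covers counting error only.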

Additional observations from a re-analysis of the deposited data

Results flagged for a closer look

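Among 26 groups of 5 values (4 transcripts and 9 library measures, each in 2 groups), 4 had a value far from the others, where chance gives about 1 in 20. ENSRNOT00000079795 had 0.69 CPM in low-dose replicate 2 (MS-12), above the other low-dose samples. ENSRNOT00000002814 had 14.8 CPM in vehicle replicate 3 (MS-16). MS-16 also held 23.6% of its counts on genomic intervals and 30.2% of its TPM in liver-restricted transcripts, far from the other vehicle livers on both measures.

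The effect of the low dose differed between groups by the interaction tests. It differed between 24 and 8 h in the liver for 122 transcripts, between kidney and liver at 8 h for 692, and between heart and liver at 8 h for 2335. For ENSRNOT00000047126 the effect was lower than in the liver by a log2 difference of −4.29 in the kidney (edgeR adjusted p = 0.000908) and −5.18 in the heart (edgeR adjusted p = 0.000694). For ENSRNOT00000002814 the effect in the heart minus that in the liver was 3.87 on the log2 scale (edgeR adjusted p = 0.00625). Both transcripts were named for a large change in the liver samples that also enter these tests. That choice favours a large difference, so these values are a description.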

How the results depend on the processing

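The 1614 calls numbered 1246 (without MS-9) to 1760 when 1 sample was left out, 1971 with DESeq2, 1672 with DESeq2 without MS-9, and 1513 with no filter on low counts. They were 3424 (1802 rises, 1622 falls) with no limit on the fold change, 2482 (2236, 246) with library totals in place of TMM, and 369 (246, 123) in the 6 libraries with few interval counts once MS-9 was left out, which are 4 against 2 samples. The 944 rises and 670 falls became 1259 and 157 with limma on log2(TPM + 1), which raises the median of all transcripts by 0.20, and 1877 and 219 with a pseudocount of 0.1. Rises were 58.5% of calls, and 88.9%, 89.5%, and 90.1% of them on these last 2 scales and on library totals. High against low dose gave 403 calls, 793 with DESeq2, and 97 to 512 with 1 sample left out. Time gave 122, 838 with DESeq2, 57 with no filter, and 10 to 184. Kidney against liver gave 692, 1478 with DESeq2, and 443 to 966. Heart against liver gave 2335, 3666 with DESeq2, and 1859 to 2770. The 315 calls at 24 h became 1515 without MS-1.

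In the 7 libraries with few interval counts, where 3 against 4 samples cannot give p below 0.0571, the differences (low dose minus vehicle) were 1351 in transcripts at 1 TPM or more, −3.36 percentage points in the share of the 3000 most abundant, and 0.23 in the TMM factor. Of the 24 alternatives, ENSRNOT00000047126 was called in all 24, ENSRNOT00000079795 in 22, and ENSRNOT00000002814 in 20. ENSRNOT00000082209 was also called in all 24, but it could pass the filter on low counts only through the low-dose samples, so nothing is read from that. No call named here changed direction. The causes of these changes were not tested. Counts summed per gene were not run for want of a table of genes. The 8 liver and kidney samples with library numbers in step are the nearest to pairs. Their deviations from the group means correlated at 0.00451 to 0.251, over 0.1 in 4 pairs, and those of liver and heart at −0.00289 to 0.0707, over 0.1 in none. A liver sample correlated best with its own number, among samples of its dose, in 5 of 8 kidney pairs and 6 of 8 heart pairs, a hint from the data and not the design. With the replicate block, kidney against liver gave 337 calls (690 without the block) and heart against liver 374 (1214), and without MS-9 3 (283) and 19 (357). The alternatives with interval counts, DESeq2 without MS-9, library totals, pairs in step, transcripts detected in untreated livers, and MS-1 left out of the comparison at 24 h were chosen after seeing the data.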
